A study of Homo sapiens with 6 samples.

Results

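The cyclins, the kinase CDK1 and the CDC25 phosphatases that drive the cell cycle were followed on 6 microarrays of U373, a human glioblastoma cell line. All probe sets whose annotation gave exactly 1 of 10 gene symbols were taken: CCND1, CCND2, CCND3 and CCNE1, here called the G1 cyclins, and CCNA2, CCNB1, CCNB2, CDK1, CDC25B and CDC25C, here called the G2/M group. These 10 genes, of 8226 named on the array, had 19 probe sets, 9 for the G1 cyclins and 10 for the G2/M group. Each of 6 conditions had 1 Affymetrix Human Genome U95 Av2 array: untransfected, untreated U373 cells at day 1, and 5 arrays of syk-transfected U373 cells, namely untreated at day 1, with ethanol at day 1, with ethanol and PonA at day 1, untreated at day 2, and with ethanol and PonA at day 2. PonA, the ecdysteroid ponasterone A, switches on the construct of an ecdysone-inducible expression system, was used at 10 µM, and both PonA arrays also carried ethanol. Induction times of 6 to 48 hours were given for the series as a whole and not per array. No untransfected cells received PonA, no array had ethanol alone at day 2, nothing says whether the transfected cells are 1 clone, and no condition was repeated, so there is no spread between replicates of a condition.

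Cyclins are the regulatory subunits that activate cyclin-dependent kinases, and each is made in its own part of the cycle. D-type cyclins respond to growth signals and, with cyclin E, carry cells through G1 into DNA synthesis, whereas cyclin A and the B-type cyclins accumulate later and activate CDK1 for entry into mitosis. CDC25 phosphatases remove the inhibitory phosphates from the kinases, and the RNAs of the late genes are normally low in G1 and high in G2 and mitosis.

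Values are MAS5 signal, a single linear expression value per probe set and array that the authors had scaled to a common level. Signal under the 40th percentile of an array was treated as its floor, which lay between 22.7 and 26.5 units, and a fold from a signal under the floor is a lower bound. Of 3 probe sets of SYK, the transfected kinase gene, 1 was above the floor on the PonA arrays only, at 39.1 on day 1 and 72.5 on day 2. Another gave 56.3 and 35.2 with PonA, within the 22.0 to 73.1 of the other arrays, and the dimmest was under the floor throughout. Of 5 glial markers found, VIM, CD44, SOX2 and GFAP were above the floor on all 6 arrays, and S100B, at most 51.8, on all but the untreated array of day 1. GFAP gave 1533 in untransfected and 103 to 229 in transfected cells. Of the markers that define other cell types, PTPRC (haematopoietic) reached at most 9.90, SNAP25 (neuron) 8.15 and EPCAM (epithelium) 5.96, all under the floor. Others of the same lists were higher: LAPTM5 (25.3 to 86.7), KRT8 (427 to 590) and KRT18 (49.95 to 82.3) were above the floor on all 6 arrays. CD74 reached 54.5, SYP 41.7 and CDH1 33.7. Of the fibroblast markers, THY1 (390 to 1247) and COL1A1 (31.7 to 121) were above the floor on all 6 arrays, and PDGFRB reached 46.6. COL1A1 was highest with PonA at day 1, at 121, against 31.7 to 47.1 on the other arrays. The summed signal of 4 epithelial markers, most of it KRT8, was 513 and 566 with PonA and 595 to 680 on the 4 arrays without it, and 1 of the 4, EPCAM, was under the floor on all 6 arrays. For 4 haematopoietic markers, 2 of them under the floor throughout, the sum was 76.5 and 110 with PonA and 70.6 to 133 without. It was 31.4 and 48.4 against 40.6 to 66.7 for 3 neuronal markers, 1 of them under the floor throughout, and 511 and 645 against 462 to 1325 for 3 fibroblast markers. The part of these differences in the results was not tested. The 3' to 5' ratio of beta-actin, a sign of RNA integrity, was 1.20 and 1.21 on the day 2 arrays and 0.960 to 0.987 at day 1. That of GAPDH was 1.01 and 1.04 with PonA and 0.939 to 0.964 on the 4 arrays without it. The part of either ratio in the results was not tested.

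PonA went with lower levels of most of the G2/M group at both days, while no G1 cyclin moved past the threshold. The brightest CDK1 probe set was level between PonA and ethanol at day 1. The effect of PonA over both days was estimated with limma over the 5 transfected arrays, as a log2 difference with its moderated standard error (SE), and a probe set was called at a Benjamini-Hochberg adjusted p under 0.05 over all 7934 probe sets tested. Of 10 G2/M probe sets 8 fell and none rose, and each of the 6 genes had at least 1 that fell. The single CDC25C probe set and the dimmest of CDK1 had passed the filter on low values only through arrays without PonA, and of the 8 others 7 fell, in 5 genes. Of 7 tested G1 cyclin probe sets none fell and none rose. Over all probe sets tested, 2.37% fell and 2.70% rose. With 1 probe set per gene, the brightest, the median effect was -2.13 over the 6 G2/M genes and 0.27 over the 4 G1 cyclins, against 0.01 over all probe sets tested. Without CDC25C the former was -2.20 over 5 genes. With 2 residual degrees of freedom, these p-values measure the ethanol difference at day 1 and the difference of the PonA effects between days, not the spread of repeated cultures. Without the filter on low values, 1 of the 8 calls, that of CDC25B, passed. In RNA from whole cultures, fewer cells in G2 and mitosis and less of these RNAs per cell cannot be told apart.

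**Figure D1:**
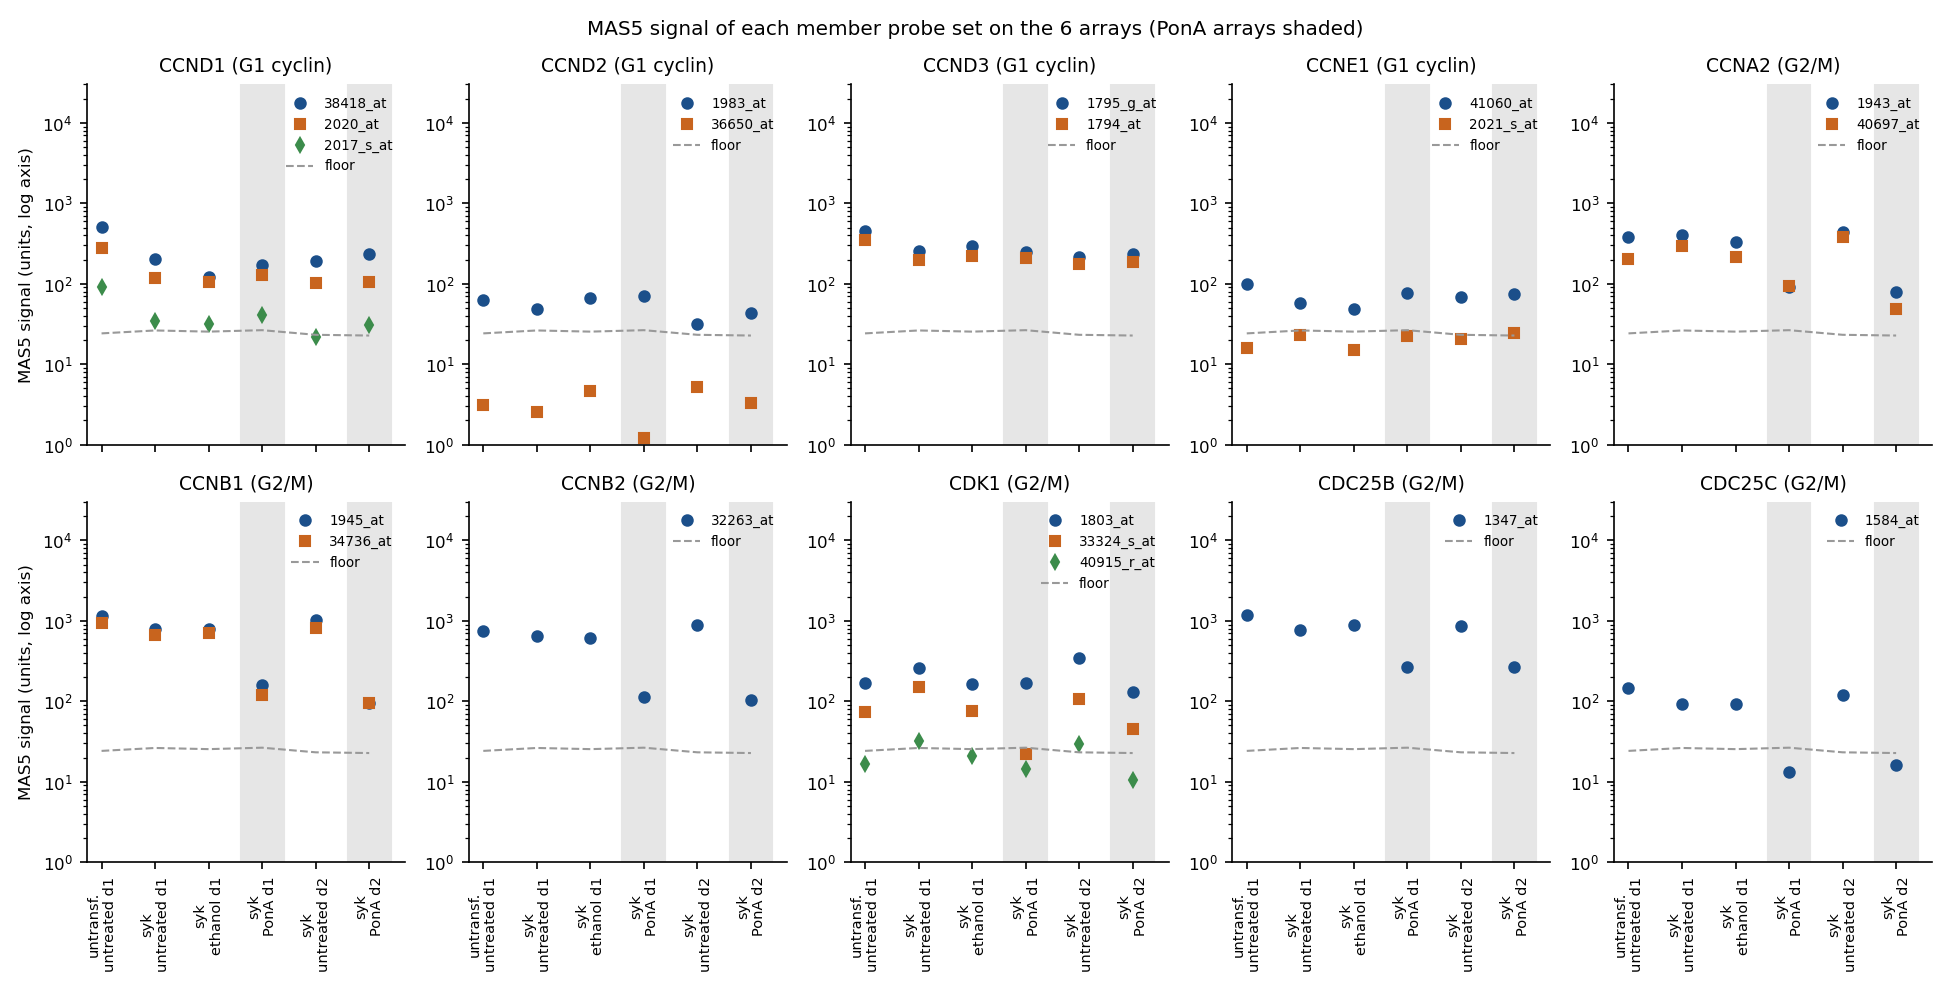
MAS5 signal of every member probe set (log axis, 1 panel per gene; circles for the brightest probe set of a gene, squares for the second, diamonds for the third) on the 6 arrays, with d1 and d2 for day 1 and day 2, PonA arrays shaded and the floor as a dashed line. The CCNB1, CCNB2, CCNA2 and CDC25B points of the 2 PonA arrays lie below those of the 4 other arrays, while those of CCND1 and CCND3 are highest on the untransfected array.

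The promoters of the G2/M group are shown from RefSeq, build GRCh38.p14. The table held 13 start windows of the G2/M genes and 4 of CCND3 and CCNE1, each from 250 bases before to 50 bases after an annotated start; CCND1 and CCND2 were not matched. Motifs were searched on both strands: CCAAT, the box bound by NF-Y; the cell cycle genes homology region, CHR, as TTTGAA or TTCGAA; and the E2F site as TTTCCCGC, TTTGGCGC, TTTCGCGC or TTTGCCGC. Below are the 250 bases before the start of 4 late genes and of CCNE1 for contrast, 5′ to 3′ on the gene's strand, with matches in capitals. Where a gene had several windows, the one with the most kinds of motif before the start was taken. They lie at chr5:69166900-69167149 (CCNB1, plus strand), chr15:59104896-59105145 (CCNB2, plus strand), chr10:60778228-60778477 (CDK1, plus strand), chr5:138331805-138332054 (CDC25C, minus strand) and chr19:29811741-29811990 (CCNE1, plus strand).
CCNB1: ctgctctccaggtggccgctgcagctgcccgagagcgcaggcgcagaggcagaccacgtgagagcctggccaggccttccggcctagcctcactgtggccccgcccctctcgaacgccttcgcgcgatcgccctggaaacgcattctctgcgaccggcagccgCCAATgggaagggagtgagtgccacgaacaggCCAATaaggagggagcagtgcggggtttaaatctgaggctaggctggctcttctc
CCNB2: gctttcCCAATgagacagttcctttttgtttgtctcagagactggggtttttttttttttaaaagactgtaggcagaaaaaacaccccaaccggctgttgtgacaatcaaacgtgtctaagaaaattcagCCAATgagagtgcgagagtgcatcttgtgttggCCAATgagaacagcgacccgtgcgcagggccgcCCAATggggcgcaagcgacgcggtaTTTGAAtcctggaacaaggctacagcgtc
CDK1: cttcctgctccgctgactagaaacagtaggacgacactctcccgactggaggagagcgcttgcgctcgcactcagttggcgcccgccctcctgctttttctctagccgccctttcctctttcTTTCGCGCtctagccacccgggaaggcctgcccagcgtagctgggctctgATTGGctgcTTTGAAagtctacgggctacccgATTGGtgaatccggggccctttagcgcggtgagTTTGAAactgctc
CDC25C: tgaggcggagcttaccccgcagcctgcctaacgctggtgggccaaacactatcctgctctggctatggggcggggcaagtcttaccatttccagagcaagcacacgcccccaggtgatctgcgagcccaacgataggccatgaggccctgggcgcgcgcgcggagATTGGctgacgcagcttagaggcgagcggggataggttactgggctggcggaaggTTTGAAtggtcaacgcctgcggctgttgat
CCNE1: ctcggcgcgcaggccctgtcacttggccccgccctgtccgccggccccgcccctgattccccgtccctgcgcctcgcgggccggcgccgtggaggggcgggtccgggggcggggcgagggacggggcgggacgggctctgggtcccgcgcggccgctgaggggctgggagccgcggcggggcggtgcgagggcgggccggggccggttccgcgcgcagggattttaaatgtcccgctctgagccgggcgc

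CCNB1 held CCAAT boxes at 87 and 55 bases before the start, and CCNB2 held 4, at 244, 120, 87 and 54 bases, with a CHR match at 29. In CDK1 the boxes, read on the opposite strand, began 78 and 46 bases before the start and the CHR matches 69 and 13 bases before it, with another after the start and an E2F match at 128. CDC25C held an opposite-strand box at 85 and a CHR match at 30. Of the sequences not printed, CCNA2 had 1 box at 56 and CDC25B 1 box at 73 with TTCGAA at 38. CCND3 had a box at 136 in 1 of its 3 windows and one at 64 in another, and CCNE1 had no match.

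A CCAAT box stood in at least 1 window of all 6 G2/M genes and of 1 of the 2 matched G1 cyclins, and in 39.7% of the 27305 genes of the table. A CHR match stood in 4 of the 6, CCNB2, CDK1, CDC25B and CDC25C, in 0 of the 2 and in 19.5% of all, and each of those 4 also had a CCAAT box in the same window (7.85% of all genes). An E2F match stood in 1 of the 6, CDK1, and in 3.99% of all. CDC25B and CDC25C had 4 windows each, and so more room for a match. In CCNB1, CCNB2 and CDK1 neighbouring boxes lay 32 or 33 bases apart, a spacing noted after the sequences were seen, which 0.839% of all genes have. A match is a run of letters and no measured site, and none of these arrays measured binding. Other spellings of the motifs were not searched, so a gene without a match is not shown to lack the site.

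**Figure D2:**
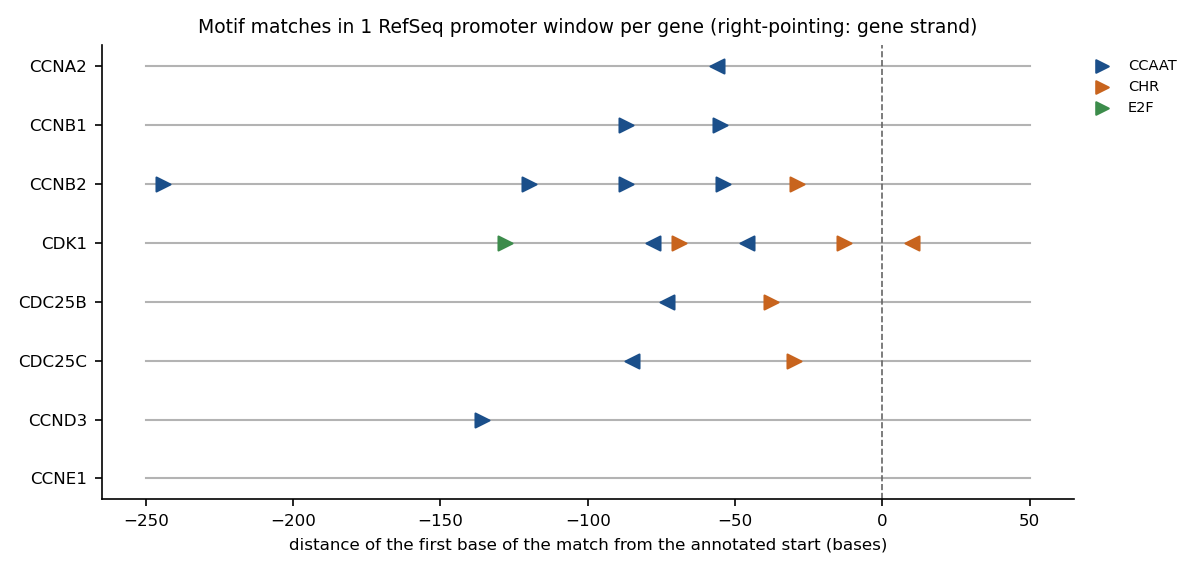
Position of each motif match in 1 promoter window for each of the 8 matched members, as the distance in bases of its first base from the annotated start (dashed line); right-pointing marks are on the gene's strand. The CCAAT matches of CCNB1, CCNB2 and CDK1 include pairs 32 or 33 bases apart, and CCNE1 has no mark.

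CCND1 encodes cyclin D1, which activates CDK4 and CDK6 in response to growth factors. It had 3 probe sets, named here, as for the other genes, by their order of mean signal. The brightest gave 503 in untransfected cells. In transfected cells it gave 203 untreated, 122 with ethanol and 171 with PonA at day 1, then 191 untreated and 231 with PonA at day 2. The PonA array of day 1 lay among the other transfected arrays and that of day 2 was the highest of the 5, and the effect was 0.19 ± 0.25 (SE, 95% confidence interval -0.42 to 0.79, adjusted p = 0.752). The second gave an effect of 0.13 ± 0.17 (adjusted p = 0.750) and the dimmest one of 0.36 ± 0.17 (adjusted p = 0.301).

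CCND1 was highest on the untransfected array on all 3 probe sets. On each of the 5 transfected arrays the brightest was 2.17-fold to 4.12-fold lower than in untransfected cells. The second gave 279 in untransfected cells and 101 to 128 in transfected ones, 2.18-fold to 2.76-fold lower. The dimmest gave 90.9 against 21.5 to 41.4, 2.20-fold to 3.92-fold lower, the last of these folds a lower bound. The 3 CCND1 probe sets were the only ones of the 19 at least 2-fold lower on all 5 transfected arrays, a pattern shown by 0.763% of the 8654 probe sets above the floor on any array. These comparisons share the 1 untransfected array and have no test. GFAP was also lower on all 5, as given above.

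CCND2 encodes cyclin D2, a close relative of cyclin D1. Its brighter probe set gave 62.4 in untransfected cells, 49.2 untreated, 67.2 with ethanol and 70.8 with PonA at day 1, then 31.5 untreated and 42.7 with PonA at day 2. The day 2 arrays were the lowest, the PonA and other arrays overlapped, and the effect was 0.36 ± 0.20 (SE, 95% confidence interval -0.12 to 0.84, adjusted p = 0.399). The other reached at most 5.24, below the floor of each array, and was not tested.

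CCND3 encodes cyclin D3, the third D-type cyclin. Its brighter probe set gave 451 in untransfected cells, 259 untreated, 292 with ethanol and 245 with PonA at day 1, then 215 untreated and 232 with PonA at day 2. All 5 transfected arrays were lower than the untransfected one, by 1.55-fold to 2.10-fold, and among them the PonA arrays overlapped with the others. The PonA effect was -0.05 ± 0.18 (SE, 95% confidence interval -0.47 to 0.38, adjusted p = 0.926). The dimmer probe set was 1.57-fold to 1.97-fold lower on the transfected arrays, with a PonA effect of 0.03 ± 0.17 (adjusted p = 0.944). The sign of the latter turned under quantile normalization, to -0.01.

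CCNE1 encodes cyclin E1, which activates CDK2 at the start of DNA synthesis. Its brighter probe set gave 99.3 in untransfected cells, 57.6 untreated, 48.8 with ethanol and 76.7 with PonA at day 1, then 68.6 untreated and 73.7 with PonA at day 2. Both PonA arrays lay above the other transfected arrays, the highest of which gave 68.6, and below the untransfected one. The share of all probe sets with that order was not counted. The effect of 0.35 ± 0.19 did not pass the threshold (SE, 95% confidence interval -0.12 to 0.81, adjusted p = 0.395). The dimmer probe set was above the floor on 1 array and was not tested. Over the 7 tested G1 cyclin probe sets the intervals ran from -0.47 to 0.84.

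CCNA2 encodes cyclin A, which works with CDK2 in DNA synthesis and with CDK1 before mitosis. The brighter of its 2 probe sets gave 380 in untransfected cells, 399 untreated, 333 with ethanol and 91.7 with PonA at day 1, then 438 untreated and 78.3 with PonA at day 2. Both PonA arrays lay far below the 4 others, and the effect was -2.20 ± 0.20 (SE, adjusted p = 0.00433), or 4.60-fold lower. The dimmer gave 201 untransfected, 297, 216 and 93.4 for untreated, ethanol and PonA at day 1, and 378 and 49.2 for untreated and PonA at day 2. It fell as well, with an effect of -2.08 ± 0.36 (SE, adjusted p = 0.0261). Its effect was -1.44 without the untreated array of day 2 (adjusted p = 0.0695), without the PonA array of day 2 (adjusted p = 0.0793) and on the day 1 arrays alone (adjusted p = 0.0606). It was -1.53 with an ethanol term (adjusted p = 0.106), and the call was also lost with the floor at the 20th percentile (adjusted p = 0.115).

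CCNB1 encodes cyclin B1, the main partner of CDK1 at the entry into mitosis. The brighter of its 2 probe sets gave 1160 in untransfected cells, 781 untreated, 787 with ethanol and 159 with PonA at day 1, then 1020 untreated and 94.5 with PonA at day 2. The untreated and ethanol arrays of day 1 were level, and those with PonA were the lowest of the 6. It was 4.96-fold lower than with ethanol and 4.92-fold lower than untreated at day 1, and 10.8-fold lower than untreated at day 2. The effect was -2.79 ± 0.27 (SE, adjusted p = 0.00463). The dimmer gave 120 and 95.5 with PonA against 674 to 943 on the 4 other arrays, and an effect of -2.77 ± 0.20 (adjusted p = 0.00395).

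CCNB2 encodes cyclin B2, the other mitotic B-type cyclin, and its promoter printed above has the most CCAAT boxes of the 8. Its only probe set gave 745 in untransfected cells, 652 untreated, 610 with ethanol and 112 with PonA at day 1, then 896 untreated and 102 with PonA at day 2. The PonA arrays did not overlap with any of the others. The effect of -2.77 ± 0.21 (SE, adjusted p = 0.00395), or 6.81-fold lower, was close in size to those of both CCNB1 probe sets.

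CDK1, the kinase that these cyclins activate, was read by 3 probe sets that differed. The brightest gave 170 in untransfected cells, 260 untreated, 166 with ethanol and 168 with PonA at day 1, then 349 untreated and 132 with PonA at day 2. At day 1 the PonA and ethanol arrays were level, with a log2 difference of 0.02, and both lay below the untreated array. The effect of -0.78 ± 0.32 did not pass the threshold (SE, adjusted p = 0.244), and depended on the ethanol array: it was -1.02 without that array (adjusted p = 0.0287) and -0.18 with an ethanol term in the fit (adjusted p = 0.901). On the day 1 arrays alone it was -0.31 (adjusted p = 0.850).

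The second CDK1 probe set gave 72.8 in untransfected cells, 149 untreated, 75.1 with ethanol and 22.0 with PonA at day 1, then 107 untreated and 45.6 with PonA at day 2. With PonA at day 1 it was under the floor, at least 2.83-fold lower than with ethanol and at least 5.62-fold lower than untreated. It fell, the effect being -1.67 ± 0.34 (SE, adjusted p = 0.0435). That call was lost under quantile normalization (adjusted p = 0.0640) and without the PonA array of day 1 (adjusted p = 0.270), the untreated array of day 2 (adjusted p = 0.0636) or the PonA array of day 2 (adjusted p = 0.0722). With an ethanol term the effect was -1.19 (adjusted p = 0.195), and on the day 1 arrays alone the adjusted p was 0.0517. With the floor at the 20th and 60th percentile it was -1.83 (adjusted p = 0.154) and -0.58 (adjusted p = 0.294). The dimmest lay under the floor with PonA at both days and had an effect of -0.22 ± 0.19 (adjusted p = 0.601). Ethanol alone over untreated at day 1 gave a log2 difference of -0.65 on the brightest and -0.99 on the second, sizes that no other G2/M probe set reached.

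CDC25B encodes the phosphatase that starts CDK1 activation. Its probe set gave 1199 in untransfected cells, 775 untreated, 885 with ethanol and 266 with PonA at day 1, then 866 untreated and 264 with PonA at day 2. The PonA arrays of both days were level, and the effect was -1.67 ± 0.17 (SE, adjusted p = 0.00522), or 3.18-fold lower.

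CDC25C encodes the phosphatase that CDK1 in turn activates. It had 1 probe set, which gave 148 in untransfected cells, 93.4 untreated, 91.6 with ethanol and 13.2 with PonA at day 1, then 120 untreated and 15.9 with PonA at day 2. Both PonA values were under the floor, so it was at least 3.46-fold lower than with ethanol and at least 3.53-fold lower than untreated at day 1, and at least 5.29-fold lower than untreated at day 2. The fit gave -2.06 ± 0.20 (SE, adjusted p = 0.00463), but both PonA values in it are floors, so its size is a lower bound and its SE and p describe the floors. With the floor at the 60th percentile the effect was -0.54 (adjusted p = 0.101).

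**Figure D3:**
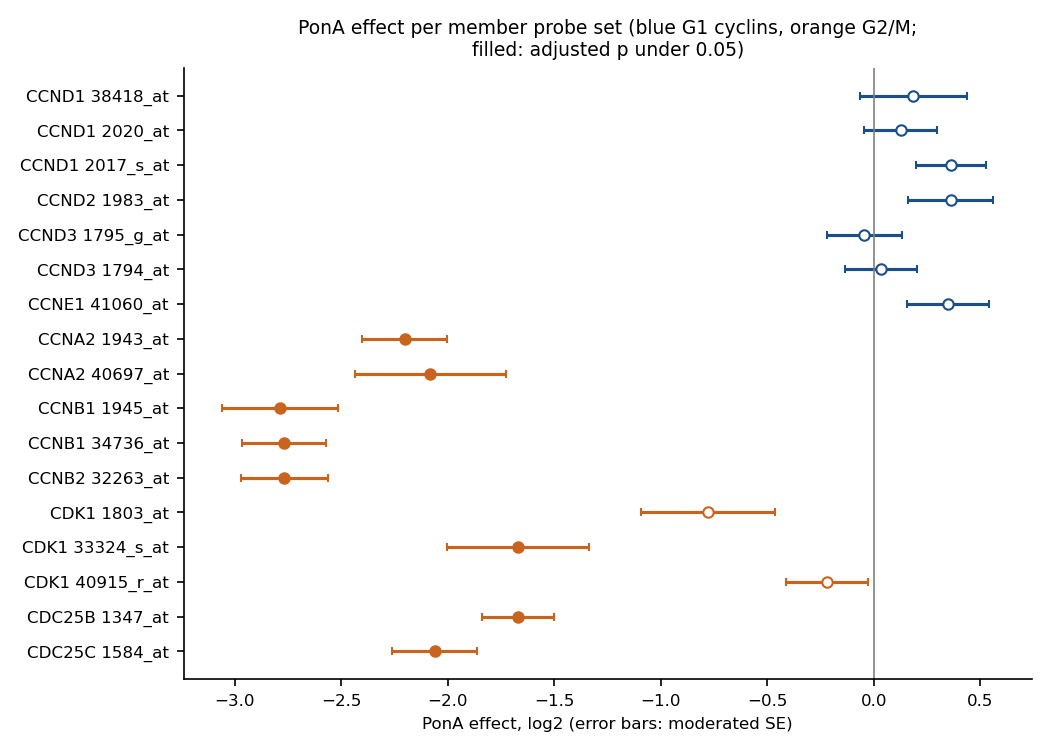
PonA effect on the log2 scale for the 17 member probe sets tested, with moderated SE as bars, G1 cyclins in blue, the G2/M group in orange, and filled points for an adjusted p under 0.05. The 7 blue points lie between -0.05 and 0.36, and the 8 filled orange points between -2.79 and -1.67.

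Both PonA arrays lay below all 3 other transfected arrays for 9 of the 10 G2/M probe sets, the brightest of CDK1 being the exception, and for none of the G1 cyclin probe sets tested, against 16.2% of all probe sets tested. These orders are by signal alone: for the dimmest of CDK1 the ethanol array was under the floor too, which leaves 8. By size alone, 8 G2/M probe sets were at least 2-fold lower with PonA in all 3 comparisons, with ethanol at day 1, with untreated cells at day 1 and with untreated cells at day 2, against 1.30% of all probe sets tested. They were the 8 that fell in the fit, which uses the same arrays, so the rule is no separate support. CDC25C, under the floor on both PonA arrays, is 1 of them, and its folds are lower bounds. With the floor at the 60th percentile 6 probe sets held the rule. The first and second comparisons share the PonA array of day 1.

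The next 3 comparisons set transfected arrays alike in PonA against each other. With ethanol alone against no treatment at day 1, none of the 10 genes was 2-fold apart on its brightest probe set, against 2.18% of all probe sets, and the median difference was -0.06 in the G2/M group and -0.03 in the G1 cyclins. Between day 1 and day 2 of untreated cells, none was 2-fold apart on that probe set either (3.19% of all). On it all 6 G2/M genes were higher at day 2, by 0.13 to 0.46 on the log2 scale, as were 42.6% of all probe sets, while CCND1, CCND2 and CCND3 were lower. Between the PonA arrays of the days, none of the 10 was 2-fold apart on its brightest probe set (2.93% of all). On it 5 of the G2/M genes were lower at day 2 by 0.01 to 0.75, as were 57.4% of all probe sets, while CDC25C was under the floor on both arrays. The second CDK1 probe set went the other way in both comparisons of days, at -0.47 for untreated cells and at least 0.78 with PonA. The dimmest CDK1 probe set was at -0.12 for untreated cells. On the brightest probe sets, untreated transfected against untransfected cells at day 1 gave 1 of the 10 at 2-fold, CCND1, against 5.72% of all probe sets. On these, 8 of the 10 genes, against 44.5% of all probe sets, were lower in the transfected cells, CCNA2 and CDK1 being higher by 0.07 and 0.61. The second CDK1 probe set was 2.04-fold higher in the transfected cells. The shares of 42.6%, 57.4% and 44.5% count floored values of all 7934 probe sets tested. A probe set under the floor on both arrays takes the difference of the floors, -0.18, -0.22 and 0.12 in that order. How many did so was not counted.

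The median difference of the G2/M genes was -1.83 with ethanol as the reference at day 1, -1.97 with untreated cells at day 1 and -2.44 with untreated cells at day 2. A limma fit with a term for the difference of the effect between days, chosen after the data were seen, had 1 residual degree of freedom. The term was negative, a lower effect at day 2, for 9 of 10 G2/M probe sets and for 51.1% of all. Of the 8 G2/M probe sets above the floor on a PonA array 7 were negative, the largest in size being -1.51 ± 0.46 for the dimmer CCNA2 probe set (SE, unadjusted p = 0.0129) and -1.13 ± 0.39 for the brighter one of CCNB1 (unadjusted p = 0.0240). The second CDK1 probe set went the other way at 0.76 ± 0.63. None passed the adjustment: 0 of 7934 terms were called in limma, 330 had an unadjusted p under 0.05, and every member's adjusted p was 1.00. Day 2 had no ethanol array, so the parts of ethanol and PonA at that day cannot be told apart.

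**Figure D4:**
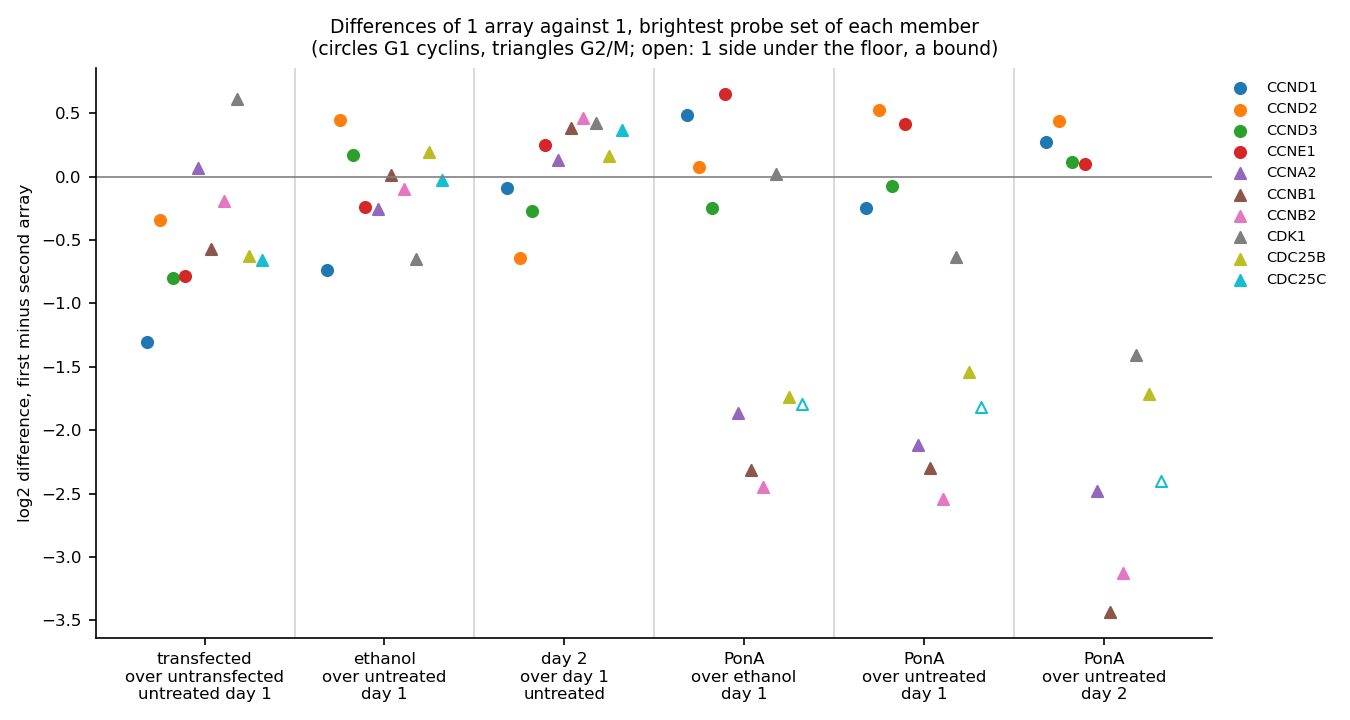
Log2 differences of 1 array against 1 for the brightest probe set of each member, with circles for G1 cyclins, triangles for the G2/M group and open symbols where 1 side was under the floor. In the 3 PonA comparisons the triangles lie between -3.43 and 0.02, the highest of them CDK1 over ethanol at day 1, and the circles between -0.25 and 0.65.

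Regulators of the same switch were counted from a list of 30 genes, of which 26 had a brightest probe set that was tested. Of these 8 fell and none rose, against the 2.37% and 2.70% of all probe sets tested, with a median effect of -0.28. CDC20, which hands cyclin B to the destruction machinery, gave 850 to 1214 on the 4 arrays without PonA and 134 and 99.4 with it, an effect of -2.95 ± 0.20 (SE, adjusted p = 0.00395). The small CDK-binding subunit gene CKS2 fell (-1.98 ± 0.19, adjusted p = 0.00441), and its relative CKS1B did too, with -1.41 ± 0.23 (adjusted p = 0.0239). CCNF, which encodes the F-box protein cyclin F, had an effect of -2.09 ± 0.24 (adjusted p = 0.00704) on its brightest probe set, while the second gave -0.96 ± 0.21 (adjusted p = 0.0549). CDKN3, a phosphatase of CDKs, fell (-1.81 ± 0.19, adjusted p = 0.00586). PLK1, the Polo kinase that activates CDC25C, fell (-1.70 ± 0.25, adjusted p = 0.0181), from 573 to 851 on the arrays without PonA to 300 and 124 with it.

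The transcription factors of the late genes were part of that list. FOXM1, which drives G2 and mitotic genes, gave 414 to 518 without PonA and 166 and 120 with it, and fell (effect -1.58 ± 0.20, SE, adjusted p = 0.00951). MYBL2, the B-Myb gene, fell (-1.06 ± 0.17, adjusted p = 0.0238). NFYA, NFYB and NFYC, the subunits of the CCAAT-binding factor NF-Y, had effects of 0.06, -0.30 and -0.13, and E2F1 one of -0.04, with adjusted p of 0.484 or more. Of the kinases of the earlier cycle, CDK4 had an effect of -0.75 ± 0.17 (adjusted p = 0.0647), CDK2 of -0.57 ± 0.20 (adjusted p = 0.186) and CDK6 of 0.27 ± 0.27 (adjusted p = 0.652). WEE1 and PKMYT1, the kinases that inhibit CDK1, had effects of 0.17 ± 0.21 and -0.27 ± 0.24, and the CDK inhibitor genes CDKN1A and CDKN1B of 0.15 ± 0.23 and -0.65 ± 0.16 (adjusted p = 0.0830). The phosphatase gene CDC25A, with CCNE2, CCNA1 and CHEK1, was not above the floor on enough arrays to be tested.

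**Figure D5:**
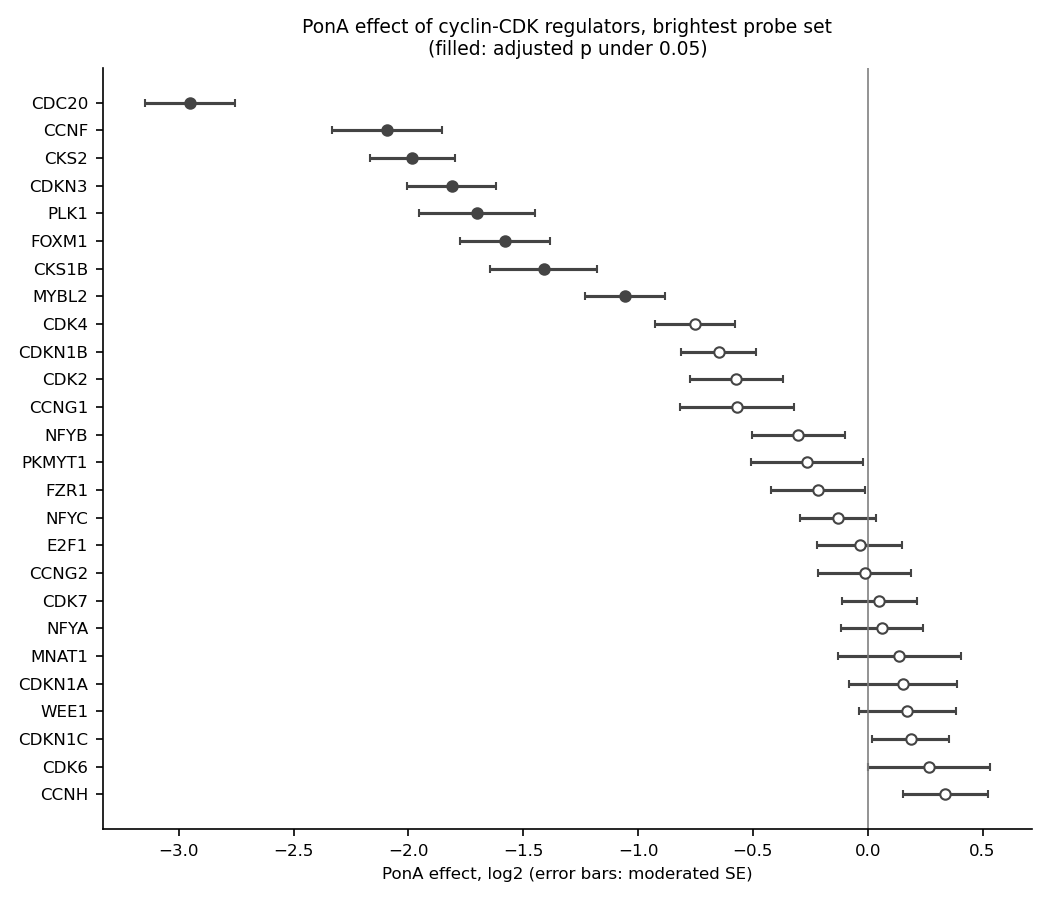
PonA effect on the log2 scale, with moderated SE as bars, for the brightest probe set of the 26 regulators tested; filled points have an adjusted p under 0.05. The 8 filled points run from CDC20 at -2.95 to MYBL2 at -1.06.

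Genes whose pattern over the 6 arrays was most like that of a member were found by the root mean square difference of mean-centred log2 signal, over 5718 genes whose brightest probe set was tested. For CCNB1 the nearest were CDC20 at 0.15, UBE2C at 0.16, TPX2 at 0.22, PTTG1 at 0.24 and CCNB2 at 0.24, where the median gene was at 1.43. UBE2C and PTTG1 encode a ubiquitin-conjugating enzyme of mitosis and securin, and TPX2 a spindle assembly factor. For the brightest CDK1 probe set they were PDHX at 0.10, CACNA1B at 0.14, H2AC15 and ZNF710 at 0.15 and FAM50A at 0.16, with a median gene at 0.54. No member of the G2/M group was among these 5. The other CDK1 probe sets, which differed from the brightest, were not compared. H2AC15 was under the floor with ethanol at day 1 and with PonA at day 2. PDHX, a subunit gene of pyruvate dehydrogenase, gave 262 untreated, 175 with ethanol and 198 with PonA at day 1, and 349 and 152 at day 2. For CCND1 the nearest were SLBP at 0.20, CAPN15 and BOLA2 at 0.22, and SZRD1 and NOP16 at 0.24, with a median gene at 0.69, and SLBP gave 134 in untransfected and 39.6 to 73.2 in transfected cells.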

How the data were processed

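The deposited values are MAS5 signal, an intensity per probe set on a linear scale, per the submitters' processing notes, which name MAS5 without a version. A genome build and detection calls are not given in the sources used here. RNA was extracted with Tripure, cleaned on RNEasy columns and hybridised as biotin-labelled cRNA, per the labels' protocols. The deposited intensity had been scaled by the authors: the mean without the lowest and highest values lay between 150.07 and 150.08 on all 6 arrays. Of 12625 probe sets, 67 controls were left out, 10943 had 1 symbol, 545 several and 1070 none, and symbols were updated through Entrez identifiers to RefSeq GRCh38.p14.

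Signal was raised to the 40th percentile of its array and put on the log2 scale. limma 3.58.1 (lmFit, eBayes, R 4.3.3) was fitted over the 5 transfected arrays with terms for PonA and day. It took the 7934 probe sets whose signal passed the floor in 2 or more of these arrays, with Benjamini-Hochberg adjustment at 0.05. The code was run on simulated data with independent noise, no ethanol or day difference, and changes added to bright probe sets only. That run cannot speak for probe sets near the floor or for such differences. eBayes added 4.48 prior degrees of freedom, and the median SE was 0.19. Comparisons of 1 array with 1 array have no p-value and use a 2-fold rule. The number of arrays limits the precision. The correlation between arrays was 0.946 to 0.985, and the spike-in controls had a geometric mean signal of 157 on the untransfected and 271 to 501 on the transfected arrays.

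All 10 members are named with every probe set, the brightest by mean signal standing for its gene. Of the regulators, those that passed and the best known regulators of a member are named, and 5 nearest genes for each of CCNB1, CDK1 and CCND1. Members, lists and tests were chosen with earlier results of these data known. Alternatives were the floor, a pseudocount of 16, quantile normalization, no filter, other terms, day 1 alone and leaving out each array.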

Additional observations from a re-analysis of the deposited data

Results flagged for a closer look

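CCND3 was the 1 member whose PonA difference changed sign between the days on its brighter probe set, lower than both other transfected arrays at day 1 by 0.25 and 0.08 on the log2 scale and higher by 0.11 at day 2. The PonA-by-day term was 0.28 ± 0.40 (SE, limma adjusted p = 1.00), so the difference between the days did not pass the threshold.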

How the results depend on the processing

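No paired analysis was possible because the labels give no replicate numbers and each condition has 1 array. The 402 calls over all probe sets became 107 with the floor at the 20th percentile, 29 without a filter on low values, where 12558 probe sets were tested, 185 with an ethanol term and 127 on the day 1 arrays alone. Leaving out each array gave 111 to 725, the highest without the ethanol array. The 8 called member probe sets became 1, CDC25B, without the filter, and 6 to 9 when an array was left out. The G2/M median of -2.13 was -2.49 with the 20th percentile floor, -1.94 with an ethanol term and -1.90 on the day 1 arrays alone, and -2.44 to -1.90 when an array was left out. The size rule held for 6 to 8 member probe sets under its alternatives.

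Over 13 alternatives, 125 of 126 effects of G2/M probe sets were below 0, the exception being the dimmest CDK1 probe set at 0.036 with an ethanol term, and 83 of 104 values of the 8 called probe sets passed the threshold. None of 89 G1 cyclin values did, with a lowest adjusted p of 0.143. All these values come from refits of the same arrays, so the counts are not independent results. Day 1 alone and leaving out either array of day 2 gave the same effects, which are thus counted more than once. The 8 called probe sets were picked by the main fit. CDC25C and the dimmest CDK1 probe set, under the floor on both PonA arrays in the main fit, are among the 126. CDC25C is also 1 of the 8 behind the 104. The matching shares over all probe sets were not counted. The sign turned for the dimmer CCND3 probe set, to -0.0066 under quantile normalization, -0.0026 without the day term and -0.081 with an ethanol term. When an array was left out it lay between -0.0032 and 0.078, and the brighter CCND3 probe set between -0.16 and 0.11. The cause was not tested. Signal near the floor limits CDC25C, the dimmest CDK1 probe set and the dimmer one of CCNE1.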
